A study of Mus musculus with 30 samples.

Results

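The 5 intronic microRNA genes Mir103-1, Mir103-2, Mir107, Mir33 and Mir378a, known for roles in lipid and glucose metabolism, were followed through the small RNA of 5 mouse organs. They were chosen by symbol, as the rows of each organ's table that carry these names, and they make up 5 of 2194 named features. The libraries came from Ftsj1_DF mice, which are deficient in Ftsj1, and from wild-type (WT) mice, all male and 4 months old. Brain, heart, kidney, liver and spleen were each taken from 3 Ftsj1_DF and 3 WT mice, so that 30 libraries came from 6 mice. The mice were brothers from 2 sets, a larger one with 2 Ftsj1_DF and 2 WT mice and a smaller one with 1 of each. The labels used here do not give the allele behind the deficiency or the strain. The enzyme made from Ftsj1 methylates ribose in the anticodon loop of certain tRNAs, and the study asked how small RNA in each organ changes without it.

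All of these hairpins lie inside genes of metabolism. Mir103-1, Mir103-2 and Mir107 sit in introns of Pank3, Pank2 and Pank1, whose products, the pantothenate kinases, start the synthesis of coenzyme A. In mice, miR-103 and miR-107 lower insulin sensitivity in liver and fat, with caveolin-1 as a known target. Mir33 sits in Srebf2, which encodes a transcription factor of cholesterol synthesis and uptake, and miR-33 represses the cholesterol exporter Abca1. Mir378a sits in Ppargc1b, which encodes a coactivator of mitochondrial genes, and in mice miR-378 represses carnitine acetyltransferase (Crat) and Med13. In the GENCODE M21 annotation each hairpin lay in an intron, on the host's strand, in every protein-coding transcript that spanned it: 1 of 1 for Pank3, 2 of 2 for Pank2, 3 of 3 for Pank1, 3 of 3 for Srebf2 and 2 of 2 for Ppargc1b.

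Sequences were taken from the RefSeq microRNA table (GRCm38.p6) for 4 of the 5 members. Mir378a was left out of the sequences searched, so nothing is said of its RefSeq entry. The guide strands are shown because they decide which genes can be told apart by a read. The letters are written 5′ to 3′, with the seed (bases 2 to 8) in capitals.

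miR-103-3p, from Mir103-1 and from Mir103-2: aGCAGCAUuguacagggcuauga

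miR-107-3p: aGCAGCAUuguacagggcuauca

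miR-33-5p: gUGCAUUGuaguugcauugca

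miR-15a-5p: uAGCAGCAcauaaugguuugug

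miR-16-5p: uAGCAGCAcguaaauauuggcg

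The first sequence is shared by both Mir103 genes, and miR-107-3p differs from it by the single substitution G22C, counted from 1 at the 5′ end of miR-103-3p. The seed GCAGCAU was found in these 3 genes alone among the 1674 mature mouse sequences searched, which left out chromosome 18. In the same search the seed of miR-33-5p, UGCAUUG, was found in Mir33 alone. miR-15a and miR-16, shown for comparison, hold the same AGCAGC letters 1 base further in, from position 2 in place of position 1, and so belong to the wider group of miR-15, miR-16 and miR-107 with another seed.

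The Mir103 genes differ outside the shared strand. Their hairpins, with miR-103-3p in capitals, differ at 17 of 86 positions. The opposite strands, miR-103-1-5p and miR-103-2-5p, differ by G1A.

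Mir103-1 hairpin (chr11:35782396-35782481, plus strand): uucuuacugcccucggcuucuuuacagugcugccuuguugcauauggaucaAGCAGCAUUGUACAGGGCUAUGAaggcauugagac

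Mir103-2 hairpin (chr2:131288052-131288137, plus strand): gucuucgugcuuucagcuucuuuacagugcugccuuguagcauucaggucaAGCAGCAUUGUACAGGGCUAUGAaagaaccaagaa

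A read of the mature miR-103-3p therefore fits both genes equally, and how such reads were divided is not given in the sources used here. The Mir107 hairpin lies at chr19:34820687-34820773 on the minus strand and the Mir33 hairpin at chr15:82198122-82198190 on the plus strand. These positions are those of GRCm38.p6, while the authors counted on GRCm39.

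For each organ the authors' deposited table gives 1 mean of counts scaled to library size, and 1 DESeq2 comparison of the genotypes, for each feature. The summed means of the named features ran between 8511372 in heart and 21787131 in kidney. Fixed marker microRNAs took the largest share in their own organ, between 7.99 times the next organ for spleen and 445 times for liver, where Mir122 is the marker. Of the 7 heart markers 6 were highest in heart, and in the other organs all markers were highest in their own organ. A heart, a kidney and a liver library of WT mice came from sequencing batch 2. They cannot be identified in the tables, so no value within batch 1 could be given for these organs and batch cannot be told apart from genotype there. Which genotype forms the numerator of the fold change is not stated in the tables. The numerator genotype is therefore called the positive side, where a positive fold change means a higher level, and the other genotype the negative side. Each side has 3 libraries, and no direction is given for Ftsj1 loss. Nor do the tables say that the numerator is the same in all 5 organs.

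Levels are given in ppm, normalized counts per 1000000 of an organ's summed means, and they describe each organ, since the tables were normalized separately. Mir103-1 was the most abundant member in every organ, and ranked between 43 and 53 among 1189 features with a Mir or Mirlet symbol. Its level was 4670 ppm in brain, 2222 in kidney, 1751 in spleen, 1603 in heart and 1040 in liver. Brain stood 2.10 times above kidney, the next organ, and 4.49 times above liver, the lowest. Without the 10 most abundant features of each organ in the total, brain still led, by 1.32 times, and heart was the lowest organ in place of liver, as it was by rank. In whole organs, fewer cells of a type and less RNA per cell cannot be told apart.

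Mir103-2, the second gene for the same guide strand, was lower than Mir103-1 in every organ and more even across them. Its level was 1335 ppm in brain, 1160 in spleen, 834 in kidney, 715 in liver and 550 in heart. The lead of brain over spleen was 1.15 times and did not hold under another denominator: without the 10 most abundant features of each organ, spleen led and brain was the third organ. The ratio of Mir103-1 to Mir103-2 was 3.50 in brain, 2.92 in heart, 2.66 in kidney, 1.51 in spleen and 1.46 in liver. Mir103-1 thus held 77.8% of the pair in brain, against 59.3% in liver. With a shared guide strand, these ratios rest on how the authors' counting divided reads, whose part was not tested.

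Mir107 ordered the organs differently from the Mir103 pair. It reached 274 ppm in kidney, 162 in liver, 133 in brain, 84.9 in heart and 45.8 in spleen. Kidney was 1.69 times above liver and 5.97 times above spleen. The Mir103 pair summed to 63.5 times Mir107 in spleen, 45.0 times in brain, 25.4 times in heart, 11.2 times in kidney and 10.8 times in liver. By rank among the Mir or Mirlet features, Mir107 stood highest in liver, at 99, and at 101 in kidney. No spread over libraries is given for the Mir103 genes, or for Mir107 outside spleen, so differences between neighbouring organs were not set against one.

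Mir33, whose guide represses cholesterol export, was the lowest of the members with a mean above 0 and varied most between organs. It stood at 22.1 ppm in spleen, 9.55 in liver, 6.58 in kidney, 4.41 in brain and 1.42 in heart. Spleen was 2.32 times above liver and 15.6 times above heart. Here the spread over libraries could be set beside the order, since the low counts allowed the 6 libraries of each organ to be separated. The libraries ran from 15.9 to 28.8 ppm in spleen, with a median of 21.8, and from 7.38 to 15.2 in liver, with a median of 8.66. They ran from 5.37 to 8.44 in kidney, with a median of 6.13, from 3.87 to 5.02 in brain, with a median of 4.37, and from 0 to 2.38 in heart, with a median of 1.72. With these totals, liver and kidney overlapped, and no other neighbours in this order did. Without the 10 most abundant features of each organ, spleen led liver by 1.63 times in place of 2.32. The library ranges were not set on that total, so the gap between spleen and liver was not checked there. Among Mir or Mirlet features Mir33 ranked 198 in spleen and 199 in liver. Among all named features it ranked 220 in spleen and 214 in liver.

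**Figure D1:**
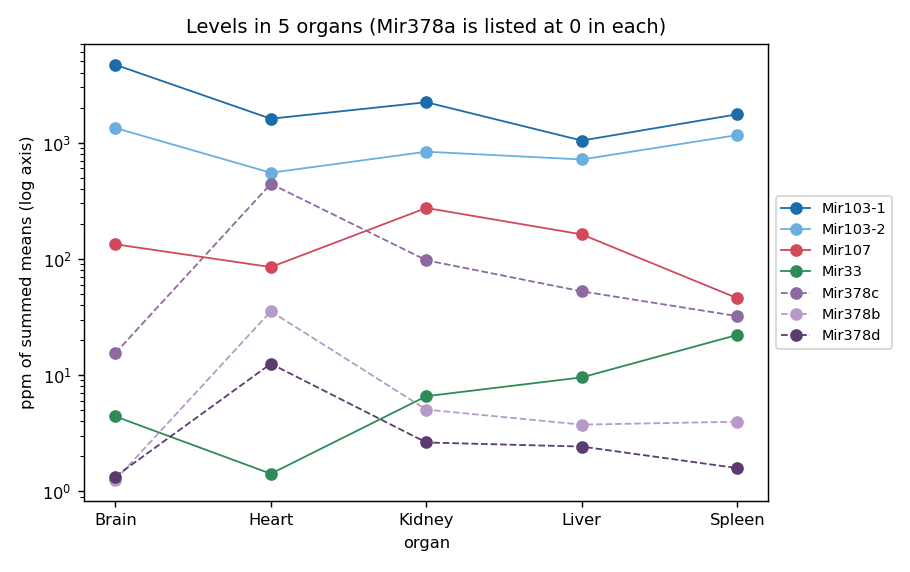
Level of each member with a mean above 0, and of Mir378b, Mir378c and Mir378d, in the 5 organs, in ppm of the organ's summed mean normalized counts on a log axis. Each point is the deposited mean of 6 libraries and lines join the points of 1 gene. Mir103-1 lies highest in every organ, Mir33 peaks in spleen at 22.1 and the Mir378 genes peak in heart.

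Mir378a was listed at 0 in all 5 organs. It has no fold change or p-value there. The same was true of 133 of the 1189 Mir or Mirlet features, and 678 of all 2194 features. Because a 0 in such a table can have several origins, no level is drawn from it.

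Another 3 genes of the Mir378 family had levels above 0, and all of them were highest in heart. Their mature sequences, from RefSeq (GRCm38.p6), are shown since they share most of their letters, with the seed in capitals.

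miR-378b: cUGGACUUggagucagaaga

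miR-378c: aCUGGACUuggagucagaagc

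miR-378d: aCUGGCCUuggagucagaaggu

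Mir378c stood at 442 ppm in heart, 97.1 in kidney, 52.5 in liver, 32.1 in spleen and 15.4 in brain. It took between 85.3% of the summed level of the Mir378 genes in spleen and 92.7% in kidney. Mir378b reached 35.4 ppm in heart and between 1.25 and 5.04 elsewhere. Mir378d reached 12.5 in heart and between 1.34 and 2.63 elsewhere. Heart exceeded the next organ, kidney, by 4.67 times for the 3 genes summed, and brain, the lowest, by 27.2 times. For Mir378d the 6 heart libraries, at 10.2 to 14.5 ppm, did not overlap the 6 kidney libraries, at 1.40 to 4.06. Whether reads of other genes of this family were counted in these rows was not tested.

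By the distance between log2 levels over the 5 organs, centred for each gene, the features most like Mir103-1 were Mir872, Mir29b-2 and Mir26a-1, at root mean square distances of 0.20, 0.21 and 0.23. For Mir103-2 they were Mir29b-1, Mirlet7g and Mir671, at 0.23, 0.23 and 0.31. For Mir107 they were Mir30a, Mir365-1 and Mir101a, at 0.47, 0.51 and 0.61. For Mir33 they were Mir362, Snord43 and Mir5121, at 0.59, 0.60 and 0.67. These are descriptions over 5 organs among 193 or 194 features, which share the organs' libraries and totals. Mir30a, for example, was highest in kidney at 108737 ppm, like Mir107, and Mir362 was highest in spleen at 175 ppm, like Mir33.

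The genotype comparison then asked whether any member differed between Ftsj1_DF and WT in an organ. None of the 19 contrasts with an adjusted p passed 0.05 in the authors' deposited tables, whose DESeq2 adjusted p-values for the members ran between 0.975 and 0.999. At an unadjusted p below 0.05 there was 1 member contrast of 20, that of Mir103-2 in spleen. The share of all features past the adjusted threshold was 0% in spleen, 0.229% in liver, 0% in kidney, 1.13% in heart and 0% in brain. At an unadjusted p below 0.05 it was 3.48% in spleen, 3.9% in liver, 4.5% in kidney, 5.33% in heart and 2.23% in brain. Of the 20 member fold changes 10 were positive and 10 negative. The medians of the members were −0.11 in spleen, −0.22 in liver, −0.16 in kidney, 0.08 in heart and 0.07 in brain on the log2 scale. Over all features with a statistic the medians were 0.00 in spleen, 0.07 in liver, 0.04 in kidney, 0.16 in heart and −0.01 in brain. In heart that median was −0.01 over features that average 10 or more.

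Mir103-1, the more abundant of the Mir103 genes, had close side means in brain. Side means follow from a deposited mean and fold change, and in brain they were 75760 normalized counts on the positive side, against 74782 on the negative side. Log2 fold changes of Mir103-1 in the authors' deposited tables were −0.21 in liver (SE 0.43), −0.15 in kidney (SE 0.29), 0.10 in heart (SE 0.21) and 0.02 in brain (SE 0.23). In spleen the authors' deposited table gave −0.52 (SE 0.29), with a DESeq2 p of 0.0742 and an adjusted p of 0.988. The 95% intervals include 0 in all 5 organs and run from −1.09 to 0.05 in spleen. With these errors, a change of the size seen in spleen was not called.

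Mir103-2 differed most in spleen as well, with the opposite sign. Its log2 fold changes in the authors' deposited tables were −0.13 in liver (SE 0.43), −0.18 in kidney (SE 0.29), 0.05 in heart (SE 0.21) and 0.12 in brain (SE 0.24). In spleen the authors' deposited table gave 0.62 (SE 0.26), with a DESeq2 p of 0.0189 and an adjusted p of 0.988. That p ranked 13 among 1208 spleen features.

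**Figure D2:**
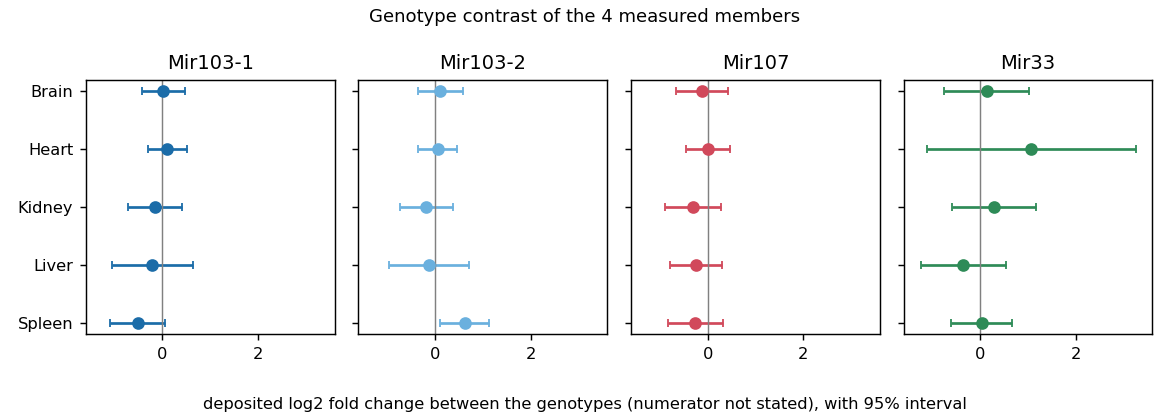
Deposited log2 fold change between the genotypes (horizontal axis) of Mir103-1, Mir103-2, Mir107 and Mir33 in each organ, with bars of 95% intervals from the deposited standard error. The interval of Mir103-2 in spleen, 0.10 to 1.13, is the only one of 20 that leaves out 0, and its adjusted p is 0.988.

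The spleen means of the Mir103 genes differed between the sides in opposite directions, while the sums of the pair lay close. Mir103-1 averaged 15460 normalized counts on the positive side, against 22134 on the negative side. Mir103-2 averaged 15079 on the positive side, against 9823 on the negative side. The pair summed to 30539 on the positive side, against 31957 on the negative side, a log2 ratio of −0.07. Mir103-1 made up 50.6% of the pair on the positive side, against 69.3% on the negative side. In the other organs the log2 ratio of the sums was −0.17 in liver, −0.16 in kidney, 0.09 in heart and 0.04 in brain, and the shares of Mir103-1 on the sides lay closer together. The share in brain was 77.2% on the positive side, against 78.4% on the negative side, and in heart 74.8% on the positive side, against 74.1% on the negative side. The share in kidney was 72.9% on the positive side, against 72.5% on the negative side, and in liver 58.6% on the positive side, against 59.9% on the negative side.

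The spread between genes that share a mature sequence gives a scale for this. In spleen, 22 such pairs found among the sequences used had means of at least 100. The median absolute difference of their log2 fold changes was 0.19. The set is not complete: Mir133a-1 and Mir133a-2, at spleen means of 152 and 290, are not in it in any organ. The Mir103 pair is among them, and some genes stand in several pairs, such as Mirlet7c-2 with Mirlet7c-1 and with Mirlet7a-1. The Mir103 pair had the largest, −1.14 for Mir103-1 minus Mir103-2. Next came the Mir365 pair at 0.95 in size, the let-7c pair at 0.91 and the Mir19b pair at 0.82. In brain the Mir103 pair stood at −0.10 and ranked 17 of 26, in heart at 0.05 and 12 of 23, in kidney at 0.03 and 14 of 23, and in liver at −0.08 and 12 of 22. The ranking was made after the spleen values were seen, and it carries no test.

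**Figure D3:**
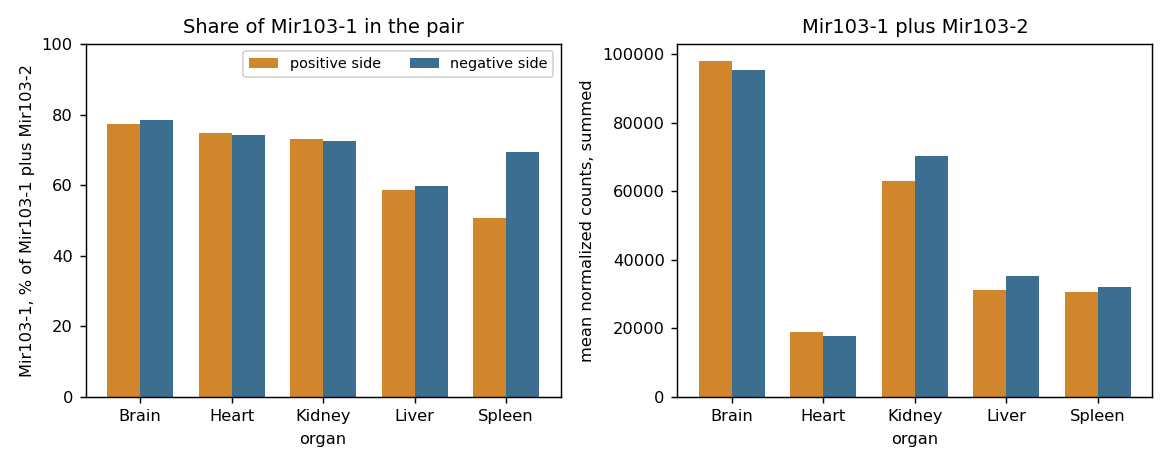
Left, share of Mir103-1 in the Mir103 pair, in percent, on the positive and negative sides of the genotype contrast in each organ, and right, the summed mean normalized counts of the pair, all computed from the deposited mean and fold change and so without error bars. In spleen Mir103-1 holds 50.6% on the positive side, against 69.3% on the negative side, while the sums are 30539 on the positive side, against 31957 on the negative side.

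Mir107, which shares the seed, had small fold changes throughout. In the authors' deposited tables its log2 fold changes were −0.26 in spleen (SE 0.29), −0.24 in liver (SE 0.28), −0.30 in kidney (SE 0.30), 0.01 in heart (SE 0.23) and −0.11 in brain (SE 0.28). The smallest p of these was 0.316, in kidney, by DESeq2. The values per library in spleen were 517, 370.3 and 457 normalized counts on the positive side, against 495, 416 and 697 on the negative side, from 3160 reads in all. The sides overlapped, with means of 448 ± 73.6 for the positive side and 536 ± 145 for the negative side (SD, n = 3 each). Without the library at 697 the log2 ratio of side means was −0.02 in place of −0.26.

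Mir33 is shown library by library, since whole reads could be recovered for it in every organ. In spleen, where it was most abundant, it had 233, 252 and 234 normalized counts on the positive side, against 171, 228 and 309 on the negative side. The negative side enclosed the positive side, with means of 239.8 ± 10.4 for the positive side and 236 ± 69.5 for the negative side (SD, n = 3 each). The log2 fold change in the authors' deposited table was 0.03 (SE 0.32, DESeq2 adjusted p 0.992).

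In liver Mir33 had 181, 139.8 and 156 normalized counts on the positive side, against 287, 148 and 172 on the negative side. The sides overlapped, with means of 159 ± 20.8 for the positive side and 203 ± 74.2 for the negative side (SD, n = 3 each). The authors' deposited table gave a log2 fold change of −0.35 (SE 0.45, DESeq2 adjusted p 0.991). Without the library at 287 the log2 ratio of side means was −0.01 in place of −0.35. The liver sides also differ in depth: the 3 recovered size factors of the positive side ran from 0.500 to 0.729, and those of the negative side from 1.45 to 2.15. The part of depth in the liver values was not tested.

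In kidney Mir33 had 172, 117 and 184 normalized counts on the positive side, against 143, 124 and 119.7 on the negative side. Means were 158 ± 35.8 for the positive side and 129 ± 12.7 for the negative side (SD, n = 3 each). The lowest library of all lay on the positive side, as did the highest 2, and the log2 fold change in the authors' deposited table was 0.29 (SE 0.45, DESeq2 adjusted p 0.975). In brain the counts were 77.4, 81.0 and 64.4 on the positive side, against 62.5, 74.8 and 66.2 on the negative side. Their means were 74.3 ± 8.75 for the positive side and 67.8 ± 6.31 for the negative side (SD, n = 3 each). The brain sides overlapped and the whole spread over 6 libraries was 1.30 times, with a log2 fold change of 0.14 (SE 0.45, DESeq2 adjusted p 0.989) in the authors' deposited table.

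In heart Mir33 rested on few reads, 96 in all. It had 31, 14 and 10 reads on the positive side, against 37, 0 and 4 reads on the negative side. Scaled to library size these were 13.1, 20.2 and 16.5 normalized counts on the positive side, against 16.2, 0 and 6.23 on the negative side. The sides overlapped, with means of 16.6 ± 3.56 for the positive side and 7.47 ± 8.17 for the negative side (SD, n = 3 each). A single library of each side was deep, with a size factor of 2.37 on the positive side, against 2.28 on the negative side, and the other 4 had size factors between 0.605 and 0.736. The fold change of 1.07 on the log2 scale (SE 1.11) in the authors' deposited table has a DESeq2 p of 0.336 and no adjusted p. Without the library at 0 the log2 ratio of side means was 0.57, and without the negative-side library at 16.2 it was 2.42, against 1.15 with all 6.

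**Figure D4:**
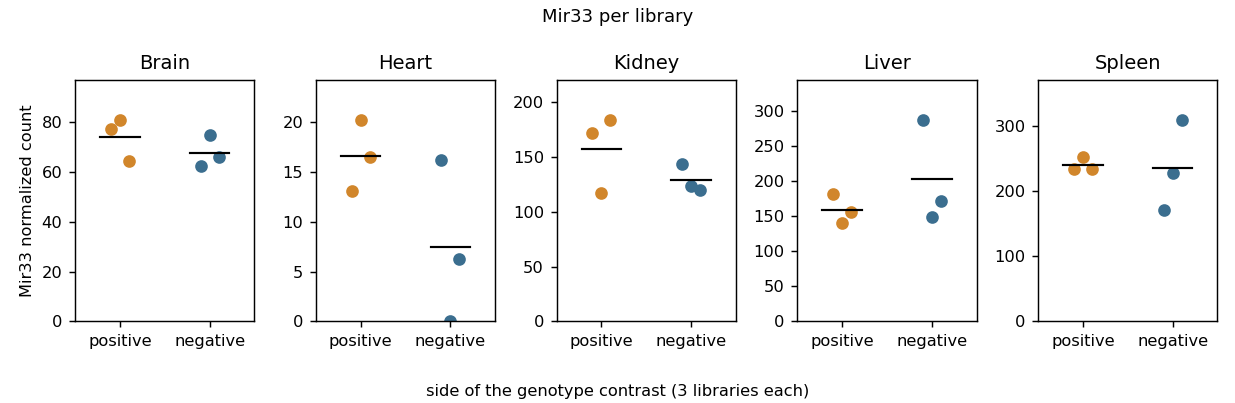
Mir33 in each of the 6 libraries of an organ, in normalized counts, with the positive side left of the negative side and the mean of each side as a line. The sides overlap in every organ, and spleen libraries run from 171 to 309.

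Differences between organs were tested directly, as the difference of 2 deposited log2 fold changes over their combined standard error, with Benjamini-Hochberg adjustment over all features tested in both organs. Organs of the same mice were treated as independent, and the sign assumes the same numerator in each table. Of 40 member tests over 10 organ pairs none passed an adjusted p of 0.05, the smallest adjusted p being 0.989, while 1 test lay below 0.05 unadjusted. That was Mir103-2, at −0.80 for kidney minus spleen (SE 0.39, z-score p 0.0393, adjusted p 0.996). Among all features the share past the threshold was 0.134% for kidney minus liver and 0% for each of the other 9 pairs. No member's contrast was thus shown to differ between organs.

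Of 15 contrasts of the other Mir378 genes none passed an adjusted p of 0.05, while 2 lay below 0.05 unadjusted, 1 in heart and 1 in liver. Over all features the share below 0.05 was 5.33% in heart and 3.9% in liver. Mir378c in heart had a log2 fold change of 0.46 (SE 0.21) in the authors' deposited table, with a DESeq2 p of 0.0264 and an adjusted p of 0.319. Mir378b and Mir378d in heart had 0.60 (SE 0.34) and 0.18 (SE 0.37) in the authors' deposited table. The 3 fold changes were positive in heart and in kidney and negative in spleen. For heart minus spleen the z-score test of the difference gave p 0.114 for Mir378b, 0.115 for Mir378c and 0.578 for Mir378d, each with an adjusted p of 0.9995. Mir378d in liver had 50.8, 56.6 and 100.02 normalized counts on the positive side, against 31.1, 11.7 and 25.5 on the negative side. The sides did not overlap, with means of 69.1 ± 26.9 for the positive side and 22.8 ± 9.97 for the negative side (SD, n = 3 each). Reads were split for a few genes only, so the share of all liver features with sides apart is not known. The separation therefore carries no test. The authors' deposited table gave a log2 fold change of 1.59 (SE 0.71), with a DESeq2 p of 0.0254 and an adjusted p of 0.991. These values rest on 37, 34 and 50 reads on the positive side, against 67, 18 and 37 reads on the negative side. The size factors of the positive side were smaller, as given above. The part of depth in the Mir378d difference was not tested.

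**Figure D5:**
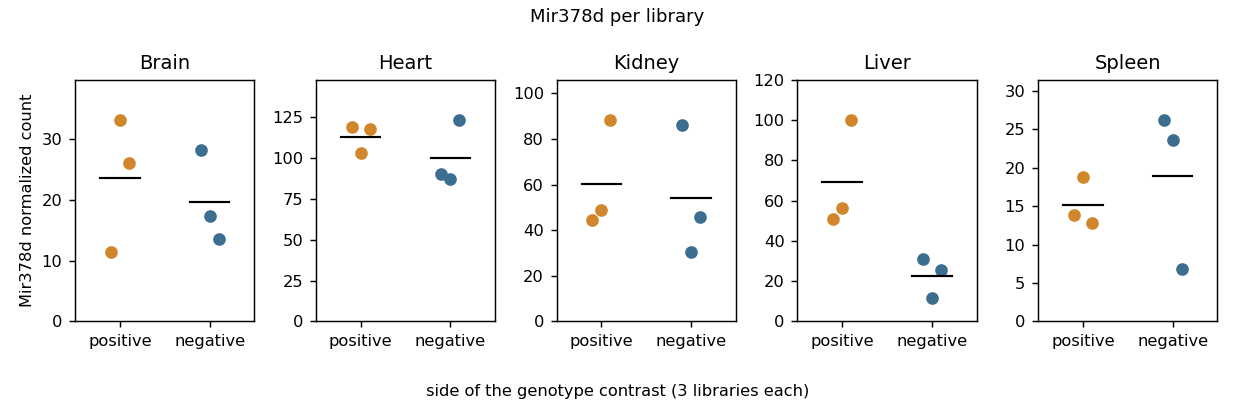
Mir378d in each of the 6 libraries of an organ, in normalized counts, with the positive side left of the negative side and the mean of each side as a line. The sides are apart in liver and overlap in the other organs, and the share of all features with sides apart is not known.

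The rest of the group of miR-15, miR-16 and miR-107 had 10 of 11 listed genes in the tables, of which Mir497 is listed at 0 in every organ and 9 have a statistic in each. It took 2.98% of the summed means in spleen, and 0.952% in brain, 1.10% in liver, 1.38% in kidney and 1.59% in heart. None of their 43 contrasts with an adjusted p passed 0.05, and none of the 45 with a p lay below 0.05 unadjusted. The most abundant were Mir16-2 and Mir16-1, which encode the cell cycle regulator miR-16. In the authors' deposited tables Mir16-2 had log2 fold changes of −0.10 in spleen, −0.10 in liver, 0.33 in kidney, 0.09 in heart and −0.11 in brain. Mir16-1 followed it closely in the authors' deposited tables, with −0.07 in spleen, −0.17 in liver, 0.35 in kidney, 0.09 in heart and −0.03 in brain. List medians were −0.10 in spleen, −0.17 in liver, 0.10 in kidney, 0.09 in heart and 0.25 in brain, to be set beside the medians over all features above.

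Further metabolic microRNAs were read from 3 lists of 15 genes each. In the lipid and cholesterol list none of 74 contrasts passed an adjusted p of 0.05, and none lay below 0.05 unadjusted. Mir122, the hepatocyte microRNA that sustains cholesterol synthesis in mouse liver, took 26.2% of the liver total, with a log2 fold change of −0.65 (SE 0.51, DESeq2 adjusted p 0.991) in the authors' deposited table. Mir148a, which represses the LDL receptor in mice, had 0.10 (SE 0.40) in liver and 0.07 (SE 0.30) in spleen, where it led the list, in the authors' deposited tables. The list was led by Mir128-1 in brain at 0.04 (SE 0.25), Mir27b in heart at 0.16 (SE 0.20) and Mir30c-1 in kidney at −0.18 (SE 0.30) in the authors' deposited tables.

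In the insulin and glucose list none of the 74 contrasts with a p passed the adjusted threshold. Over the 5 organs 3 had an unadjusted p below 0.05, or 4.05%. These were 2 in kidney and 1 in liver, of 15 contrasts with a statistic in each. Over all features the share was 4.5% in kidney and 3.9% in liver, within a range of 2.23% in brain to 5.33% in heart. Another contrast, Mir375 in liver, has a log2 fold change of 5.42 (SE 1.78) in the authors' deposited table but no p-value there. Why the p-value is missing is not given in the sources used here, so no change is read from this contrast. Its fold change is the largest of the list, and Mir375 encodes a microRNA of pancreatic islets. Mir802, which is raised in livers of obese mice, was positive in kidney at 0.92 (SE 0.36) and in liver at 0.80 (SE 0.40) in the authors' deposited tables, with DESeq2 adjusted p-values of 0.685 and 0.991. Mir141 had 0.95 (SE 0.46, DESeq2 adjusted p 0.975) in kidney in the authors' deposited table. Mir143, the most abundant of the list in all organs but brain, had −0.47 (SE 0.30) in spleen, −0.10 (SE 0.39) in liver, 0.63 (SE 0.45) in kidney and 0.07 (SE 0.19) in heart in the authors' deposited tables. Mir26a-1 led the list in brain, at 0.28 (SE 0.28) in the authors' deposited table.

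In the brown fat and mitochondrial list none of the 73 contrasts with an adjusted p passed the threshold. Of 75 with a p, 2 lay below 0.05 unadjusted, or 2.67% over the 5 organs. These were 1 of 15 in heart and 1 of 15 in liver. Over all features the share was 5.33% in heart and 3.9% in liver, and the lowest share was 2.23%, in brain. Mir193b, which promotes brown fat differentiation in mouse cells, had 1.03 (SE 0.48, DESeq2 adjusted p 0.319) in heart in the authors' deposited table. Mir193a had −0.72 (SE 0.34, DESeq2 adjusted p 0.991) in liver in the authors' deposited table. Mir30a, the most abundant of this list in every organ, had log2 fold changes between −0.24 in spleen and 0.50 in kidney in the authors' deposited tables. Mir375, Mir802, Mir141, Mir193b and Mir193a fell outside the naming rule and were named after their values were seen.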

How the data were processed

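Small RNA libraries were made with the NEXTflex kit after phenol-based extraction, per the labels' protocols. Counting used featureCounts of Subread 2.0.3 on GRCm39, followed by DESeq2, per the submitters' processing notes. How reads that fit several genes were handled, which aligner was used and which annotation were not given in the sources used here.

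Each organ's deposited table holds a mean signal (counts divided by size factors), a log2 fold change with its standard error, a Wald score (the fold change over its error), and a p-value with its adjusted p-value, per the file headers. The authors deposited no values per library in these tables, so their adjusted p at 0.05 was used in place of a count test of the libraries, and depth is known only through the size factors below. Columns of values per sample that were left unused numbered 0. The single row with no name was left out.

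Levels are means in ppm, per 1000000 of the summed means. Size factors of the 6 libraries of an organ were recovered from means that hold 1 read or a few; they explain every one of the 228 to 355 means below 1 in each organ. A mean was split into whole reads where exactly 1 of the splits searched gave both the deposited mean and the deposited fold change. The fit had genotype as its only term and was matched to the deposited standard error. The search was limited to a window on the ratio of the sides and, for larger means, to libraries within a set fold of the mean. Tolerances for this were set after seeing the data. This worked for Mir33 and Mir378d in all organs, Mir107 in spleen and Mir378b in all organs but heart, where it was not tried. Side means of other features were computed from the mean and fold change. Where reads were recovered for members of at least 50 counts, positive side means differed by at most 0.178%. That check covers Mir107 in spleen and Mir33 outside heart, and Mir33 in heart differed by 1.80%. For the Mir103 genes, whose reads were not recovered, the computed side means were not checked. The split was tried on simulated low means in brain and liver, and the test between organs on simulated heart and spleen values. Outcomes of these trials are not given here and are not used as support. Means as large as those of Mir33 in kidney, liver and spleen, or of Mir107 in spleen, were not simulated. Libraries are separate mice within an organ, and 3 per genotype limit the precision.

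Named features are the members, the 3 features with organ levels most like each member (mean of at least 100 in all organs), and from each list up to 4 that passed, otherwise the 2 with the highest mean. The members and lists were chosen with earlier results of these data known. Software was Python 3.11.15, numpy 2.4.6, pandas 2.3.3, scipy 1.17.1 and matplotlib 3.10.9.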

Additional observations from a re-analysis of the deposited data

How the results depend on the processing

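All 20 member contrasts stayed above an adjusted p of 0.05 under adjustment over every feature with a p (smallest 0.963) and over features averaging 10 or more (0.767). These settings leave the fold changes as they are. Centred on the median of features averaging at least 10 or 100, all 20 kept their sign and the 19 with an adjusted p stayed above 0.05 (smallest 0.958 and 0.975). The 40 differences between organs gave 0 calls when centred (smallest adjusted p 0.990) or limited to means of at least 10 (0.579). Without the 10 most abundant features, the highest organ over the next was 1.32 for Mir103-1 (brain) and 1.14 for Mir103-2 (spleen in place of brain). Ordered by rank in place of share, liver came first for Mir103-2 (rank correlation of the organ orders 0.1) and for Mir107 (0.6). By Pearson correlation 0 of the 3 most like features were shared for Mir103-1 and for Mir103-2. Leaving out 1 library in turn moved the log2 ratio of Mir33 side means between 0.57 and 2.42 in heart, −0.53 and −0.01 in liver, −0.16 and 0.27 in spleen, 0.17 and 0.47 in kidney, and 0.06 and 0.22 in brain, and that of Mir107 in spleen between −0.41 and −0.02. No paired analysis was possible because the tables hold no values that can be tied to a mouse. Depth limits Mir33 in heart, with 96 reads over 6 libraries, and Mir378d in liver, with 243. The cause of these changes was not tested.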
